A study of Homo sapiens with 14 samples.

Results

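The genes described here encode 46 nucleolar proteins that build ribosomes: RNA polymerase I and its factors, proteins of small nucleolar ribonucleoproteins (snoRNPs), and assembly factors of the small and the large ribosomal subunit. They were taken by symbol from a count table of 61541 Ensembl genes, all 46 symbols were found, and all 46 passed the filter on low counts, which left 18963 genes to test. The table came from Jurkat cells, a human T-cell acute lymphoblastic leukaemia line, in 14 RNA sequencing libraries of polyadenylated RNA. Cells given APS-2-79, an inhibitor of the kinase scaffold KSR (KSRi, n = 3), were set against cells given the solvent (DMSO, n = 3). Cells with *KSR2* guide 1 (n = 3) or *KSR2* guide 2 (n = 3) were set against cells with a non-targeting guide (NT, n = 2). All groups are of the same line. The labels conflict on the method: titles call the guide lines CRISPR knockouts, the design text names CRISPR interference, and NT library names mention a short hairpin. The sources used here give no dose, no treatment time, and no word on whether guide lines are clones or pools. Whether replicates came from separate cultures is not stated, and the p-values cover no more than the variation among these libraries, part of which could be technical.

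A ribosome starts in the nucleolus, where RNA polymerase I copies the ribosomal DNA into a long precursor. Box C/D snoRNPs methylate the precursor and box H/ACA snoRNPs convert uridines to pseudouridines, while successive sets of assembly factors fold and cut it into the RNA of the small and the large subunit. Many genes of this pathway are known targets of MYC, which binds the sequence CACGTG, and growing leukaemia cells are known to depend on the pathway.

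Nearly all of these genes were lower with the inhibitor. Of the 46 members 45 fell and 0 rose (edgeR quasi-likelihood test, Benjamini-Hochberg adjusted p under 0.05 over all tested genes), where 18.7% of all tested genes fell, 22.0% rose and 40.7% changed in either direction. The fall of at least 1.5-fold seen for 31 members was seen for 6.71% of tested genes. The median log2 change of the members, KSRi minus DMSO, was −0.68, a 1.60-fold fall, against 0.02 for all tested genes. The fall was at least 2-fold for 1 of the 46 members, *NOP58*, and for 424 of the 18963 tested genes. With the guides 0 of 46 members changed against NT. Levels of the members in NT itself were far under those in DMSO, a difference between the control groups that is described after the inhibitor.

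Together the 46 members held 0.712%, 0.687% and 0.647% of all counts in the KSRi libraries, against 1.11%, 1.12% and 1.09% in the DMSO libraries. The share was 0.472%, 0.482% and 0.482% with guide 1, 0.487%, 0.503% and 0.491% with guide 2, and 0.486% and 0.484% with NT. KSRi libraries thus lay between DMSO and the guide and NT libraries, with no overlap on either side, and guide 1 and NT libraries lay within a narrow range. In RNA from bulk cultures, fewer cells that transcribe these genes and less of their RNA per cell cannot be told apart.

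**Figure D1:**
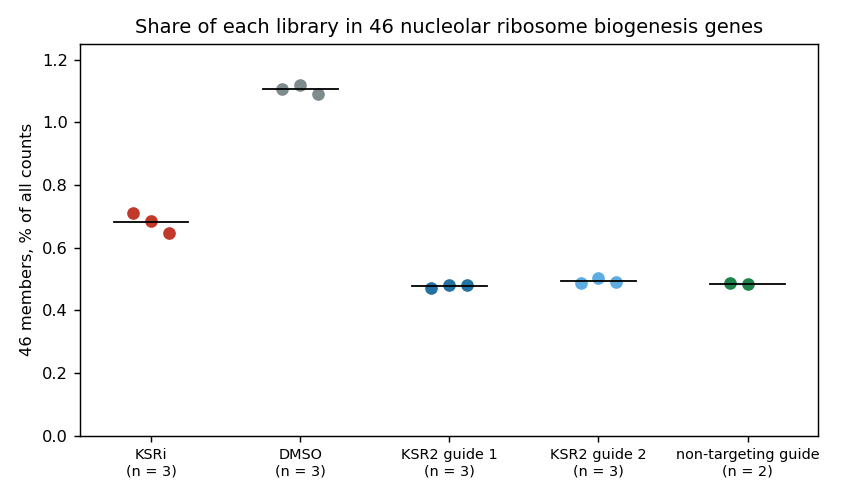
Share of all counts held by the 46 members in each library, in percent (points), with the group mean (line). The 3 KSRi points lie between 0.647% and 0.712%, under all DMSO points, and guide 1, guide 2 and NT points lie between 0.472% and 0.503%.

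Library totals ran from 21710466 to 45897075 counts for KSRi, 27099107 to 43027877 for DMSO, 33919545 to 38801454 for guide 1, 29979565 to 42717502 for guide 2 and 25794010 to 34535929 for NT. The T-cell markers fixed for the check were present in all libraries. Their summed level over 11 genes was 2424 to 3375 CPM (counts scaled to library size). Single markers differed between the control groups in both directions. *CD3G* was at 246 CPM with DMSO and 122 CPM with NT, and *TRAC* at 48.1 CPM with DMSO and 90.9 CPM with NT. Over the 14 libraries the summed level of 4 myeloid markers was 0.319 to 0.838 CPM. That of 5 erythroid markers was 0 to 0.0504 CPM, and that of 4 epithelial markers was 0.0419 to 0.5555 CPM. Among these, *EPCAM*, *KRT19*, *CSF1R*, *HBB* and *ALAS2* were at 0 in all 14. The summed level of 4 B-cell markers was 23.0 to 25.04 CPM for KSRi, 21.8 to 23.0 for DMSO, 43.5 to 59.3 for guide 1, 45.9 to 56.5 for guide 2 and 46.9 to 68.0 for NT. It came nearly all from *CD79A*, and its part in the results was not tested. *KSR2* was at 0.541 ± 0.110 CPM with guide 1 and 0.766 ± 0.0492 CPM with guide 2 (SD, n = 3 each), against 29.5 ± 0.786 CPM with NT (n = 2), and at 34.3 ± 1.20 CPM with KSRi against 37.0 ± 2.23 CPM with DMSO (n = 3 each). KSRi replicates differed more among themselves than other replicates: the median SD of log2 CPM over the members was 0.14 for KSRi, 0.05 for DMSO, 0.07 for guide 1, 0.08 for guide 2 and 0.04 for NT. Over all tested genes this median was 0.15 for KSRi and 0.09 for DMSO. The test used 1 estimate of spread per gene over all 14 libraries. Standard errors for KSRi therefore drew on the tighter groups too, and those for the guides drew on KSRi. The share of mitochondrially encoded transcripts in KSRi libraries was 1.12% to 2.51%, against 1.27% to 1.45% in DMSO libraries, and its part in the results was not tested.

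Promoter sequences were looked at because the members moved together. In the RefSeq table (build GRCh38.p14, 250 bases before to 50 after each start) 39 members were found, with 49 promoters. The letters CACGTG, which read the same on both strands, stood in 19 of the 49 (38.8%), against 1548 of 16862 promoters of tested genes (9.18%) and 2548 of all 35116 promoters (7.26%). Promoters of the other ribosome biogenesis genes described further on held it in 27 of 110 (24.5%). The motif began within 50 bases of the start in 17 of 49 member promoters (34.7%), in 21 promoters of those other genes (19.1%) and in 614 promoters of tested genes (3.64%). Median GC content, over 1 promoter a gene, was 65.0% for members and 65.0% for tested genes. Some members with large or small falls described in the following paragraphs held it, at various distances from the start. Others held none, among them *POLR1B*, *RRN3*, *DKC1*, *DDX10*, *NPM1* and *NCL*. *GNL3*, *DDX21* and *LYAR* held it in 1 RefSeq promoter and not in another. Of the members with it, 6 chosen as examples are shown as 30 bases each, 5′ to 3′ on the gene's strand, with CACGTG in capitals:
*FBL*, chr19:39846356-39846385, minus strand, motif from base 7 after the start: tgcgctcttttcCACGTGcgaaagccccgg
*WDR43*, chr2:28894658-28894687, plus strand, motif from base 4 after the start: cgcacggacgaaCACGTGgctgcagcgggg
*GNL3*, chr3:52686026-52686055, plus strand, motif from base 7 after the start: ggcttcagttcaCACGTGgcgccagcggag
*UTP20*, chr12:101280083-101280112, plus strand, motif from base −10: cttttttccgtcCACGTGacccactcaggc
*DDX21*, chr10:68956604-68956633, plus strand, motif from base −31: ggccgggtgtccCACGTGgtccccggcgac
*LYAR*, chr4:4290068-4290097, minus strand, motif from base −64: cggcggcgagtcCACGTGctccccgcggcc
For a longer view, the 100 bases before the start are shown for *UTP20*, among the strongest falls of the small subunit group, and for *TBL3*, the member that did not pass the test:
*UTP20*, chr12:101280005-101280104, plus strand: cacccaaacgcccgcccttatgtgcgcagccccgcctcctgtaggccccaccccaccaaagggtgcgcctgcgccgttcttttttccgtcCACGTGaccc
*TBL3*, chr16:1971953-1972052, plus strand: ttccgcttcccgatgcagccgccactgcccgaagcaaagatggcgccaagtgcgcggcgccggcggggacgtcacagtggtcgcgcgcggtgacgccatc
No CACGTG stood in the *TBL3* window. The 18 members with the motif had a median log2 change, KSRi minus DMSO, of −0.68, and the 21 found without it had −0.72, a difference that was not tested.

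The RNA polymerase I group was lower with the inhibitor in all 5 members, with a median log2 change of −0.48, the smallest of the 5 role groups. *POLR1B* (chromosome 2, 112541915 to 112577150, GRCh38), one of the large subunits that form the active site of the enzyme, stood at 71.1, 72.4 and 69.4 CPM in the KSRi libraries, against 123, 120 and 126 CPM in the DMSO libraries. The groups lay far apart, with a log2 change of −0.79 (SE 0.06, edgeR adjusted p = 8.60e-08). *POLR1A*, the largest subunit, stood at 194, 214 and 221 CPM with KSRi, against 317, 312 and 315 CPM with DMSO (log2 change −0.58, SE 0.07, edgeR adjusted p = 3.44e-06). *POLR1C*, a subunit shared with RNA polymerase III, was at 36.9, 45.6 and 40.7 CPM with KSRi, against 52.7, 61.4 and 57.7 CPM with DMSO (log2 change −0.48, SE 0.10, edgeR adjusted p = 0.00147). KSRi libraries were the lower ones for each of these genes, with no overlap. The smallest fall of the group was in *RRN3*, which brings the enzyme to its promoter, at 106, 115 and 123 CPM with KSRi against 135, 137 and 132 CPM with DMSO (log2 change −0.24, SE 0.06, edgeR adjusted p = 0.00777). Rows named as pseudogenes of *RRN3* held 63.0% as many counts as *RRN3*, so its reads may be shared with near-identical copies. *UBTF*, which opens the ribosomal DNA for transcription, changed by −0.42 on the log2 scale (SE 0.07).

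All 8 snoRNP members fell, and their changes spanned a wide range. *NOP58* (chromosome 2, 202265716 to 202303666), a scaffold of box C/D snoRNPs, had the largest fall of all 46, at 143, 110 and 89.3 CPM with KSRi against 245, 243 and 230 CPM with DMSO. On the log2 scale it changed by −1.07 (SE 0.11, edgeR adjusted p = 1.92e-06), which ranked it within the lowest 2.64% of tested genes. Its partner *NOP56* changed by −0.73 (SE 0.08). *FBL*, the methyltransferase of the same particles, changed little by comparison, at 193, 232 and 250 CPM with KSRi against 298, 256 and 265 CPM with DMSO. The groups did not overlap, but KSRi replicate 3 came close to DMSO replicate 2, and the log2 change was −0.28 (SE 0.10, edgeR adjusted p = 0.0381). The call for *FBL* was lost without DMSO replicate 1 (log2 change −0.21, edgeR adjusted p = 0.156), DMSO replicate 3 (−0.30, 0.0620), KSRi replicate 1 (−0.18, 0.115) or KSRi replicate 2 (−0.30, 0.0611).

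Box H/ACA particles showed a like spread. *DKC1* (chromosome X, 154762742 to 154777689), the pseudouridine synthase, was at 158, 189 and 188 CPM with KSRi against 320, 299 and 317 CPM with DMSO (log2 change −0.81, SE 0.07, edgeR adjusted p = 2.07e-07). Its partners fell less, *GAR1* by 0.42 (SE 0.08) and *NHP2* by 0.29 (SE 0.09) on the log2 scale; *NHP2* missed the threshold without DMSO replicate 1 (−0.25, edgeR adjusted p = 0.0577). *NOLC1*, a chaperone of both kinds of snoRNP and the third most abundant member per kilobase of exon, stood at 472, 465 and 405 CPM with KSRi against 725, 769 and 759 CPM with DMSO (log2 change −0.75, SE 0.07, edgeR adjusted p = 8.21e-07). *RRP9*, a protein of the snoRNP that guides the early cuts of the precursor, changed by −0.55 (SE 0.10).

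Assembly factors of the small subunit had a median log2 change of −0.77, with 13 of 14 lower, 0 higher and 11 lower by at least 1.5-fold. *WDR43* (chromosome 2, 28894643 to 28948222), of the complex that binds the precursor first, stood at 118, 109 and 91.9 CPM with KSRi, against 197, 192 and 203 CPM with DMSO (log2 change −0.89, SE 0.08, edgeR adjusted p = 3.18e-07). The helicase gene *DDX10* was at 26.7, 27.5 and 22.8 CPM with KSRi, against 49.6, 48.0 and 45.4 CPM with DMSO (log2 change −0.89, SE 0.08, edgeR adjusted p = 4.20e-07). *UTP20* (chromosome 12, 101280109 to 101386616), a very large scaffold protein, was at 119, 117 and 101 CPM with KSRi, against 204, 213 and 199 CPM with DMSO (log2 change −0.87, SE 0.07, edgeR adjusted p = 1.78e-07). KSRi replicate 3 was the lowest KSRi library for all 3 genes, and every KSRi library was under every DMSO library. Other members of the first-binding complex were lower too, with log2 changes of −0.83 for *UTP15*, −0.83 for *WDR75*, −0.67 for *HEATR1* and −0.54 for *UTP4*. Later factors also fell, with −0.86 for *LTV1*, −0.83 for *RRP12*, −0.72 for *TSR1*, −0.68 for *BYSL* and −0.48 for *NOP14*.

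*TBL3* (chromosome 16, 1972037 to 1982933) was the 1 member that did not pass the test. It stood at 96.8, 119 and 137 CPM with KSRi, against 130, 124 and 116 CPM with DMSO, so that the groups overlapped on both sides. The log2 change of *TBL3* was −0.07 (SE 0.10, edgeR adjusted p = 0.619, 95% interval −0.29 to 0.15). Without KSRi replicate 1 the value was 0.051 (edgeR adjusted p = 0.654). *PWP2*, which sits in the same assembly complex as *TBL3*, changed by −0.67 (SE 0.09). Exons of *TBL3* share 2133 bases with *NOXO1* on the other strand, a gene at 0.943 CPM with KSRi and 0.360 CPM with DMSO.

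In the large subunit group all 15 members fell, 11 of them by at least 1.5-fold, with a median log2 change of −0.64. *GNL3* (chromosome 3, 52681156 to 52694492), the nucleolar GTPase nucleostemin, stood at 147, 142 and 124 CPM with KSRi, against 277, 284 and 263 CPM with DMSO (log2 change −0.996, SE 0.08, edgeR adjusted p = 4.38e-08). The related GTPase gene *GNL2* changed by −0.62 (SE 0.09). *NOP16* was at 35.5, 37.5 and 33.6 CPM with KSRi, against 74.1, 72.7 and 55.0 CPM with DMSO (log2 change −0.92, SE 0.10, edgeR adjusted p = 2.18e-06), with DMSO replicate 3 well under the other DMSO libraries and still above KSRi. *BOP1*, *PES1* and *WDR12*, whose proteins form a complex that matures the large subunit RNA, changed by −0.41 (SE 0.12), −0.49 (SE 0.09) and −0.63 (SE 0.06) on the log2 scale. *BOP1* had the smallest fall of the group, at 177, 209 and 265 CPM with KSRi against 301, 269 and 295 CPM with DMSO (edgeR adjusted p = 0.01). KSRi replicate 3 came close to the lowest DMSO library there. The other members of the group had log2 changes of −0.73 for *MRTO4*, −0.73 for *BRIX1*, −0.68 for *DDX18*, −0.66 for *EBNA1BP2*, −0.64 for *NIP7*, −0.62 for *RRS1*, −0.55 for *PPAN* and −0.46 for *RRP1B*.

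*NOP2*, an RNA methyltransferase, was scarce in this table, at 1.01, 1.21 and 1.29 CPM with KSRi against 1.72, 2.32 and 2.17 CPM with DMSO (log2 change −0.85, SE 0.16, edgeR adjusted p = 0.000622). These levels rest on 24 to 48 counts in KSRi libraries and 41 to 84 in DMSO libraries. In GENCODE release 29 its exons share 2550 bases with another gene on the same strand, which had 0 counts in all libraries. *PPAN*, at 9.18 CPM with KSRi and 13.3 CPM with DMSO, shares 1447 exon bases with a read-through gene that had 9 counts over all libraries. It also shares 97 exon bases with *P2RY11* on the same strand, a gene with 3488 counts over all libraries. *P2RY11* itself fell with KSRi (log2 change −0.46, edgeR adjusted p = 0.00188), and its part in the change of *PPAN* was not tested. The sources used here do not say how reads over shared exons were counted, so the low levels of *NOP2* and *PPAN* are uncertain. In all, 5 members overlap other exons on the same strand and 19 on the opposite strand.

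The 4 nucleolar proteins with several roles had the lowest median log2 change of the role groups, −0.85, and all fell by at least 1.5-fold. *DDX21* (chromosome 10, 68956128 to 68985073), a helicase of rRNA transcription and processing, stood at 358, 298 and 260 CPM with KSRi, against 603, 608 and 575 CPM with DMSO (log2 change −0.96, SE 0.09, edgeR adjusted p = 3.68e-07). *LYAR*, a zinc finger protein, was at 84.0, 72.4 and 55.6 CPM with KSRi, against 138, 140 and 130 CPM with DMSO (log2 change −0.94, SE 0.12, edgeR adjusted p = 1.49e-05). The KSRi libraries of both genes spread widely and stayed under all DMSO libraries. *NPM1* (chromosome 5, 171387116 to 171411137), the nucleolar chaperone nucleophosmin, was at 992, 987 and 943 CPM with KSRi, against 1671, 1685 and 1595 CPM with DMSO (log2 change −0.76, SE 0.07, edgeR adjusted p = 3.33e-07). *NCL*, nucleolin, was at 1344, 1470 and 1286 CPM with KSRi, against 2297, 2227 and 2211 CPM with DMSO (log2 change −0.72, SE 0.08, edgeR adjusted p = 4.00e-06). Per kilobase of exon these were the most abundant members in both groups, *NPM1* at 254 CPM with KSRi and 431 CPM with DMSO, *NCL* at 197 CPM with KSRi and 324 CPM with DMSO.

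**Figure D2:**
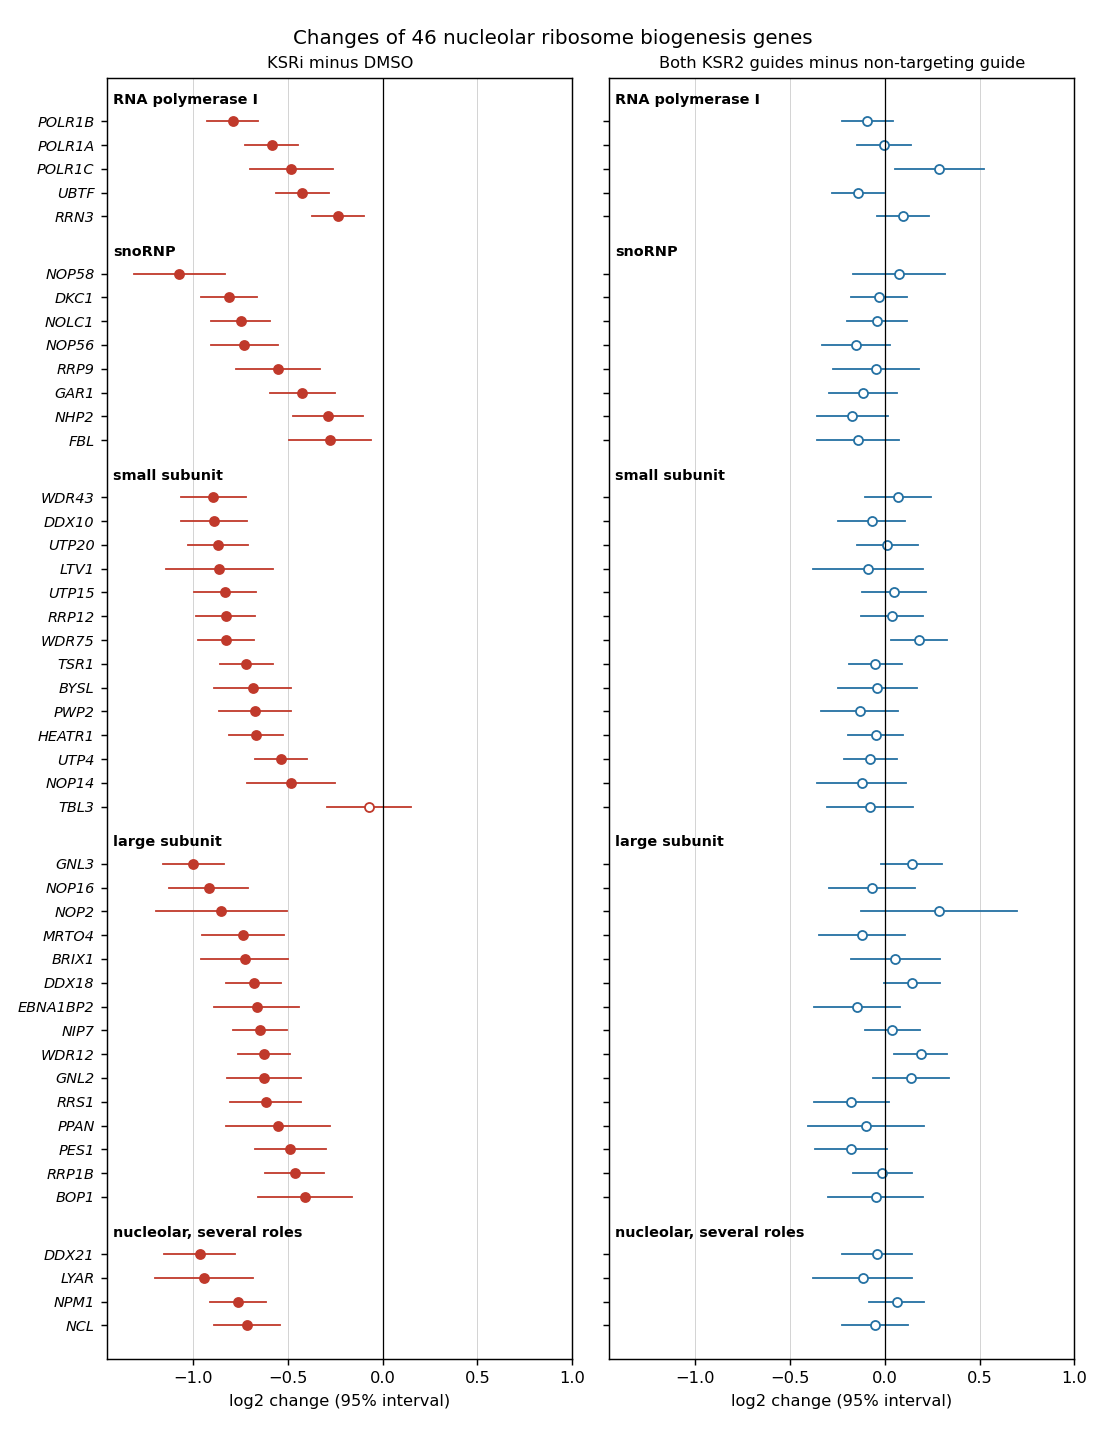
Log2 change of each member with its 95% interval, KSRi minus DMSO (left) and the mean of both KSR2 guides minus NT (right), by role group; filled points passed the test (edgeR adjusted p under 0.05). On the left 45 of 46 points are filled and lie under 0, and on the right 0 are filled and points lie between −0.18 and 0.29.

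Across the members 44 of 46 stood among the lowest 25% of tested genes by log2 change, KSRi minus DMSO, and 31 of 46 among the lowest 10%. KSRi libraries lay under all DMSO libraries for 45 members, where 21.9% of tested genes did so. Within the KSRi group replicate 3 was the lowest library for 21 members, among them *NOP58*, *DDX21*, *LYAR*, *GNL3* and *WDR43*. Replicate 1 was the lowest for 24, among them *FBL*, *NHP2*, *BOP1*, *RRN3* and *TBL3*. The same counts over all tested genes were not computed, so this split cannot be called particular to the members. Mean KSRi levels of the members relative to DMSO ranged from 47.6% (*NOP58*) to 95.3% (*TBL3*), with a median of 62.3%.

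Of 28 snoRNA genes that GENCODE release 29 places within members on the same strand, 6 lie in *GNL3*, 5 in *NOP56* and 4 in *NOP58*. In all 9 of 46 members (19.6%) hold such a gene, against 273 of 18292 tested genes with a position there (1.49%). Their median log2 change, KSRi minus DMSO, was −0.73, against −0.67 for the other 37 members. The libraries were made from polyadenylated RNA and the snoRNAs themselves were not analysed here.

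Other genes of ribosome production were a list of 116 without the members. Of these 83 fell, 2 rose and 31 did not pass the test, where 18.7% of all tested genes fell and 22.0% rose. Their median log2 change, KSRi minus DMSO, was −0.44, and the difference between this list and the members was not tested. Among 10 further polymerase I genes 6 fell, led by *TAF1D*, a subunit of its promoter selectivity factor, at 91.5 ± 25.3 CPM with KSRi against 167 ± 6.53 CPM with DMSO (SD, n = 3 each; log2 change −0.86, SE 0.13). Of 10 further snoRNP genes 6 fell, led by the assembly factor gene *SHQ1* (log2 change −0.80, SE 0.06). Small subunit factors were lower in 31 of 39 cases, with *ESF1* at −1.22 (SE 0.20), and large subunit factors in 33 of 43, with *RRP15* at −0.98 (SE 0.07). Of 14 genes of the RNA exosome and its cofactors, which trim the precursor, 7 fell, with the helicase gene *MTREX* at −0.77 (SE 0.10). The 2 genes that rose were *NOP53*, a large subunit factor, at 455 ± 35.7 CPM with KSRi against 307 ± 17.0 CPM with DMSO (n = 3 each; log2 change 0.57, SE 0.08, edgeR adjusted p = 1.88e-05), and the exosome gene *EXOSC6* (log2 change 0.24, SE 0.08, edgeR adjusted p = 0.0313).

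The comparisons of the guides with NT asked whether these genes moved with the loss of *KSR2* transcript. With guide 1, with guide 2 and with the mean of both, 0 of 46 members passed the test by edgeR, DESeq2 or limma-voom. By edgeR 0.00527% of all tested genes passed for guide 1, 0.0105% for guide 2 and 0.0158% for both. At an unadjusted p under 0.05 there were 9 members for guide 1, 3 for guide 2 and 4 for both, against 880, 683 and 788 of all 18963 genes. The median log2 change of the members was −0.08 for guide 1, 0.01 for guide 2 and −0.05 for both. For both guides the 95% intervals had a median half-width of 0.18 and reached from −0.41 to 0.69 over all members, so falls as large as the median of −0.68 with KSRi lay outside the interval of each member, while smaller changes cannot be told from none at this depth and number of libraries.

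Log2 changes of single members against NT ran from −0.31 (*EBNA1BP2*) to 0.47 (the scarce *NOP2*) with guide 1. With guide 2 they ran from −0.20 (*PES1*) to 0.31 (*POLR1C*). The 3 members with the lowest p for both guides were *WDR12* (log2 change 0.19, SE 0.07), *POLR1C* (0.29, SE 0.11) and *WDR75* (0.18, SE 0.07), each at an edgeR adjusted p of 0.989. *WDR12* was at 57.3, 54.1 and 53.3 CPM with guide 1 and 60.3, 58.7 and 56.0 CPM with guide 2, against 46.6 and 52.6 CPM with NT. *GNL3* was at 126, 138 and 146 CPM with guide 1 and 141, 135 and 132 CPM with guide 2, against 118 and 128 CPM with NT. All guide libraries of *WDR12* were above both NT libraries, and those of *GNL3* overlapped NT through guide 1 replicate 1. *NCL* was at 639, 629 and 605 CPM with guide 1 and 570, 673 and 709 CPM with guide 2, against 680 and 640 CPM with NT, a log2 change of −0.05 for both guides (SE 0.08). With guide 1 the libraries lay under both NT libraries for 19 members and above them for 6, where 14.2% of tested genes lay under and 12.9% above. With guide 2 they lay under for 5 and above for 8, where 10.8% lay under and 10.3% above. Over both guides together 4 lay under and 3 above, where 5.15% of tested genes lay under and 4.41% above. These comparisons share the NT libraries.

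Between the guides 0 of 46 members differed by edgeR, DESeq2 or limma-voom, where 0.00527% of all tested genes differed by edgeR. An unadjusted p under 0.05 was found for 614 of all 18963 genes and for 3 members. These members were *EBNA1BP2*, a large subunit factor (log2 difference, guide 2 minus guide 1, 0.32, SE 0.11), *NOP14*, a small subunit factor (0.31, SE 0.11), and *TSR1* (0.15, SE 0.07). *EBNA1BP2* was at 57.5, 57.5 and 56.1 CPM with guide 2 against 49.5, 36.5 and 50.5 CPM with guide 1, where guide 1 replicate 2 was low. Guide 2 libraries lay under all guide 1 libraries for 1 member and above them for 8, where 5.18% of tested genes lay under and 4.99% above. The median difference over the members was 0.07.

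Whether the inhibitor and the guides moved these genes differently was tested as the difference of their effects. The inhibitor effect was lower for 38 of 46 members and higher for 0, where 12.1% of all tested genes were lower, 16.6% higher and 28.6% different in either direction. It was lower by at least 1.5-fold for 28 members, where 5.86% of tested genes were. The median difference was −0.68. The lowest p was that of *GNL3* (difference −1.14, SE 0.11, edgeR adjusted p = 1.36e-06), followed by *WDR75* (−1.01, SE 0.10, edgeR adjusted p = 2.12e-06) and *WDR12* (−0.82, SE 0.09, edgeR adjusted p = 1.02e-05). The 8 members that did not pass were *GAR1*, *PES1*, *NOP14*, *PPAN*, *BOP1*, *FBL*, *NHP2* and *TBL3*, with differences from −0.45 for *PPAN* to 0.01 for *TBL3*.

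**Figure D3:**
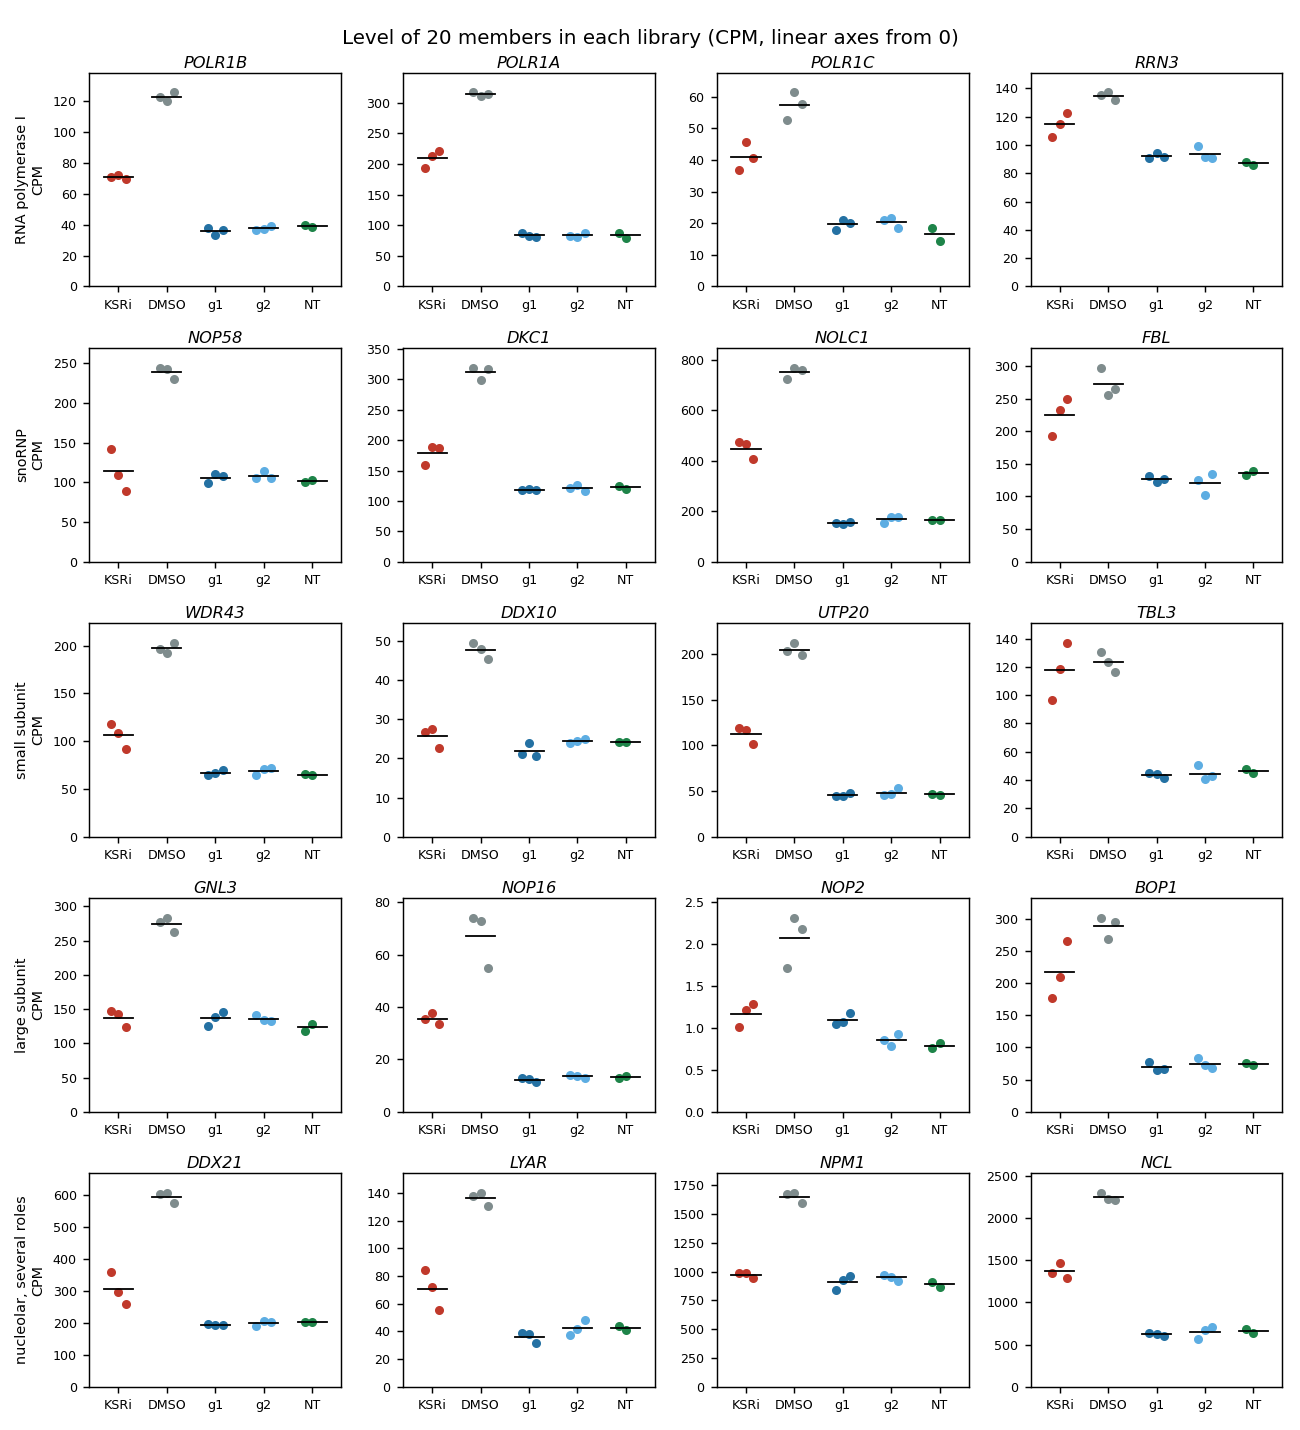
Level in every library (points, CPM on linear axes from 0) and group mean (lines) of 20 members, for each role group the 3 with the largest change between KSRi and DMSO and, at the right, the 1 with the smallest; g1 and g2 are the KSR2 guides. DMSO points lie at the top in all panels except that of TBL3, where KSRi points overlap them, and guide and NT points lie together.

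The control groups differed from each other. All 46 members were lower in NT than in DMSO (edgeR adjusted p under 0.05). Of all tested genes 31.2% were lower, 34.6% higher and 65.8% different in either direction. By at least 2-fold, 42 of the 46 members and 1545 of the 18963 tested genes were lower. The median log2 difference of the members, NT minus DMSO, was −1.585. The labels give these groups different treatments and do not say whether they were grown or prepared together, so the parts of treatment and of culture or preparation cannot be told apart. The KSRi and NT comparisons share the DMSO libraries, so their values are set side by side only. *NOLC1* was at 447 CPM with KSRi, 751 CPM with DMSO, 152 CPM with guide 1, 168 CPM with guide 2 and 165 CPM with NT, and its log2 difference, NT minus DMSO, was −2.19 (SE 0.09).

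Differences between NT and DMSO varied among the members. *RRP12*, an export factor of the small subunit, *NOP16* and *MRTO4*, a large subunit factor related to a ribosomal stalk protein, were lowest in NT relative to DMSO, with log2 differences of −2.32, −2.32 and −2.30. *RRN3* differed least (−0.63), followed by *UBTF* (−0.81) and *NPM1* (−0.89). *TBL3*, which did not pass with KSRi, was at 47.9 and 45.1 CPM with NT (log2 difference from DMSO −1.41). Every DMSO library lay above every guide and NT library for all 46 members. Of all tested genes, 37.8% had every NT library under every DMSO library. For 38 members every KSRi library lay above every guide and NT library and under every DMSO library. How many of all tested genes followed these orders across the guide, NT, KSRi and DMSO libraries was not computed. The orders therefore cannot be called particular to the members.

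For 7 members KSRi libraries overlapped those of the guides or NT, and the share of all tested genes that did so was not computed. *NPM1*, at 943 to 992 CPM with KSRi, was at 839 to 964 CPM with guide 1, 921 to 971 CPM with guide 2 and 914 and 864 CPM with NT. *NOP58*, at 89.3 to 143 CPM with KSRi, was at 98.9 to 110 CPM with guide 1, 105 to 114 CPM with guide 2 and 100 and 103 CPM with NT. *GNL3*, *WDR75*, *DDX10* and *LTV1* were alike in this, as was the scarce *NOP2*. These genes combined a large fall with KSRi and a smaller gap between the control groups, with log2 differences, NT minus DMSO, from −0.89 for *NPM1* to −1.39 for *NOP2*, against a median of −1.585 over the members.

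**Figure D4:**
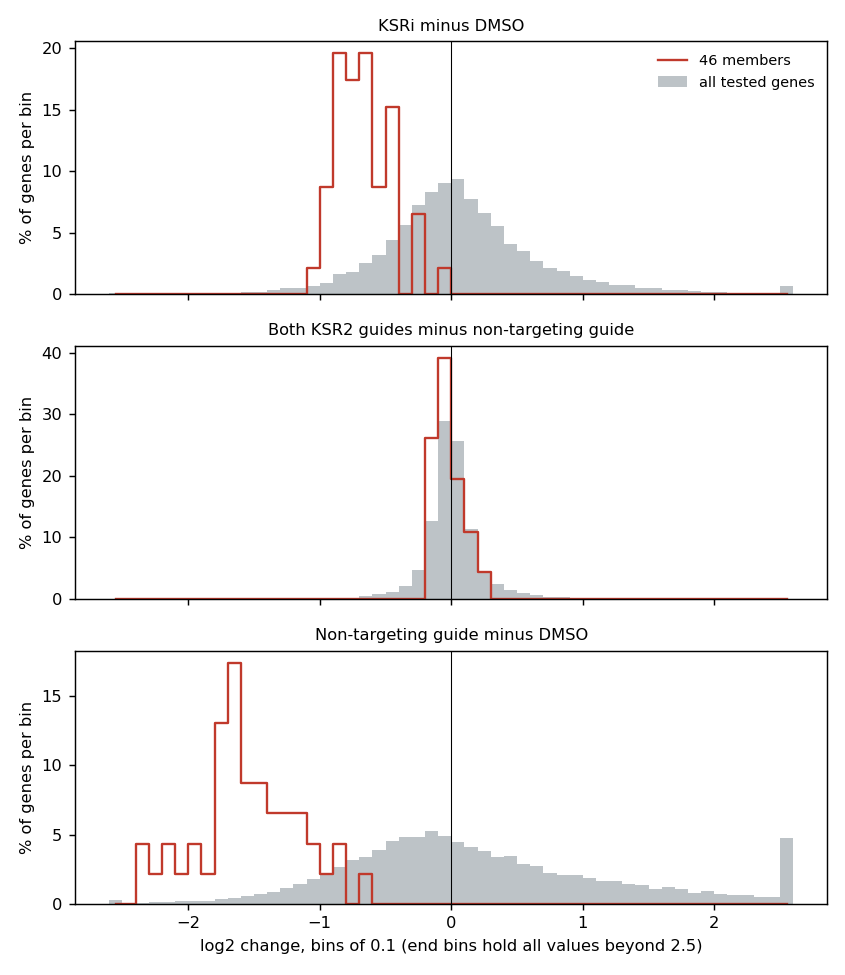
Share of genes in each bin of log2 change (0.1 wide) for the 46 members (line) and all 18963 tested genes (bars), for KSRi minus DMSO, both KSR2 guides minus NT, and NT minus DMSO. Members centre on −0.68 in the top panel, −0.05 in the middle one and −1.585 in the bottom one, while all tested genes centre on 0.02, 0.00 and 0.04.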

How the data were processed

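RNA was measured in 14 Jurkat libraries of polyadenylated RNA (RNeasy extraction and a Watchmaker library kit, per the labels' protocols). The authors deposited 1 table of raw read counts per Ensembl gene. STAR 2.7.11b and DESeq2 1.42.1 are named, with no role, per the submitters' processing notes; the counting program, strand setting and annotation release were not found in the sources used. All 14 count columns were matched to samples by name, with 0 columns left over.

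Symbols were matched to Ensembl IDs for 61369 of 61541 genes. Low counts were removed with filterByExpr over the 5 groups, libraries were scaled with TMM factors, and 1 model over all libraries was tested with edgeR 4.0.16 (quasi-likelihood test, R 4.3.3), with Benjamini-Hochberg adjustment over 18963 genes and a threshold of 0.05. CPM use the scaled library sizes. The members and lists were chosen with earlier results of these data known. Members given by library were the 3 with the largest and the 1 with the smallest change, KSRi against DMSO, in each role group, with *NCL*, *NPM1*, *FBL* and any member not lower. For the guide comparisons and the difference of effects the 3 members with the lowest p were named, and from the other genes the largest fall of each role and each that rose. Other members shown were chosen after their values were seen. Script output was tested on simulated data. DESeq2 1.42.0, limma 3.58.1 (voom), other scalings and filters, a replicate block and leaving out each library were alternatives. Positions are from GENCODE release 29.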

Additional observations from a re-analysis of the deposited data

Results flagged for a closer look

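The difference between the inhibitor effect (KSRi minus DMSO) and the guide effect (mean of both *KSR2* guides minus NT) was itself tested and passed for 38 of the 46 members by edgeR's quasi-likelihood test, all with the lower inhibitor effect. Among all tested genes 28.6% passed, and 12.1% passed with the lower inhibitor effect. Guides and inhibitor were tested in cells with different controls, NT and DMSO, between which all 46 members also differed.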

How the results depend on the processing

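With KSRi against DMSO, 42 of 46 members passed at an adjusted p under 0.01, where the share of all genes was not computed. At an adjusted p under 0.05 that share was 40.7%. Under a filter of 5 CPM in 3 libraries 44 of 45 members passed, as did 6082 of all 11600 genes left. When 1 library was left out 43 to 45 members passed, against 6209 to 8928 of all genes. With the replicate block 45 members passed, against 7217 of all genes. Equal replicate numbers showed no pairing (correlations of deviations from group means between −0.066 and 0.092). Of the 116 other genes, 36 fell by at least 1.5-fold, where 6.71% of all tested genes did. At any size 85 changed, where 40.7% of all tested genes did. Members that passed for the inhibitor effect minus the guide effect numbered 34 to 41 when 1 library was left out and 37 with the replicate block. Guide comparisons gave 0 members under every setting run, where at most 0.0158% of all tested genes passed in the main fit. Single members moved in 6 cases: *FBL* lost its call without 4 of the libraries and *NHP2* without 1, as given above, and *TBL3* ranged from −0.19 (without KSRi replicate 3) to 0.051 (without KSRi replicate 1, direction reversed); the cause was not tested. Upper-quartile scaling and library totals moved the median log2 difference of all genes, NT minus DMSO, to 0.26 and 0.31, against 0.04 with TMM, and that of the members to −1.37 and −1.31. The depth of *NOP2*, at 24 to 84 counts in KSRi and DMSO libraries, limits its precision.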
